A study of Rattus norvegicus with 4 samples.

Results

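The transcripts of 10 ionotropic glutamate receptor genes were followed across the nucleus types of the rat ventral tegmental area. They were the AMPA receptor subunits Gria1, Gria2, Gria3 and Gria4 and the NMDA receptor subunits Grin1, Grin2a, Grin2b, Grin2c, Grin2d and Grin3a, found by symbol among 32883 annotated genes. Nuclei came from microdissected tissue of experimentally naive Sprague-Dawley rats aged 90 to 120 days. Libraries were made with a 10x Genomics 3' kit from sorted nuclei, 2 for females and 2 for males, and each pooled tissue from 3 rats. After filtering, 20620 nuclei of 21606 barcodes were kept, with 19714338 to 25824289 unique molecular identifiers (UMIs, each standing for 1 captured transcript molecule) per library before filtering.

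AMPA receptors are tetrameric channels that carry the fast component of excitatory transmission. A channel that holds the edited GluA2 subunit, the product of Gria2, lets little calcium through, and channels without it let calcium through and are blocked by internal polyamines. NMDA receptors need the GluN1 subunit (Grin1) together with GluN2 subunits (Grin2a to Grin2d), which set magnesium block and closing speed, or GluN3 subunits (Grin3a), which lower calcium entry. In the ventral tegmental area, glutamate inputs onto dopamine neurons act through both receptor types, and a change in AMPA subunit make-up at these synapses after drug exposure is a well known form of plasticity.

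Nuclei were sorted into 7 gates by raw UMIs of marker genes, none of which is a receptor subunit. The dopamine gate (Th and Slc6a3, 2 or more UMIs each) held 306 nuclei. The GABA gate (Gad1, 2 or more) held 1113 nuclei, and the glutamate gate (Slc17a6, 2 or more, with no Gad1 UMI) held 1491. The other neuron gate, called Slc26a7-Gad2 after its 2 genes, held 142 nuclei, 24 to 43 per library. The glial gates held 8468 oligodendrocyte (Mog and Mobp), 1542 oligodendrocyte precursor (Pdgfra) and 1836 astrocyte nuclei (Gja1 and Aqp4). Values are counts per 1000000 UMIs of the gate (CPM), from the summed nuclei of a gate in a library. They are given in the order female 1, female 2, male 1 and male 2. UMIs of different genes are not on 1 scale, because transcript length and 3' capture differ, so each gene is compared with itself across gates.

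Markers that the gates did not use followed the gate names, except in the Slc26a7-Gad2 gate and for the glutamate gate. The other 2 glutamate markers, Slc17a7 and Slc17a8, summed to 4.75 to 8.31 CPM in the glutamate gate. Their sums were 5.78 to 15.4 CPM in the GABA gate and 0 to 17.8 CPM in the Slc26a7-Gad2 gate, so they did not set the glutamate gate apart. The other 8 dopamine markers summed to 2719 to 3337 CPM in the dopamine gate, 83.1 to 110 CPM in the GABA gate and 163 to 192 CPM in the glutamate gate. In the Slc26a7-Gad2 gate they summed to 978 to 1271 CPM, beside 208 to 303 CPM of Slc32a1, the vesicular GABA transporter, and 109 to 199 CPM of Slc17a6, the vesicular glutamate transporter. That gate therefore carried transcripts of dopamine, GABA and glutamate neurons, and it is called by its genes here. Of its candidates, 46 also met the glutamate gate and were kept. Another 23 were assigned to the dopamine gate and 24 to the GABA gate, whose rules they also met. Gad1 stood at 3.54 to 12.2 CPM in the Slc26a7-Gad2 gate and 508 to 665 CPM in the GABA gate, which took nuclei with 2 or more Gad1 UMIs first. The 5 other oligodendrocyte markers summed to 163 to 331 CPM in the neuron gates against 22202 to 37255 CPM in oligodendrocytes. Median UMIs per nucleus were 6300 to 11027.5 in neuron gates and 1926.5 to 3918.5 in glial gates. Pairs of libraries shared 4 to 9 cell barcodes.

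**Figure D1:**
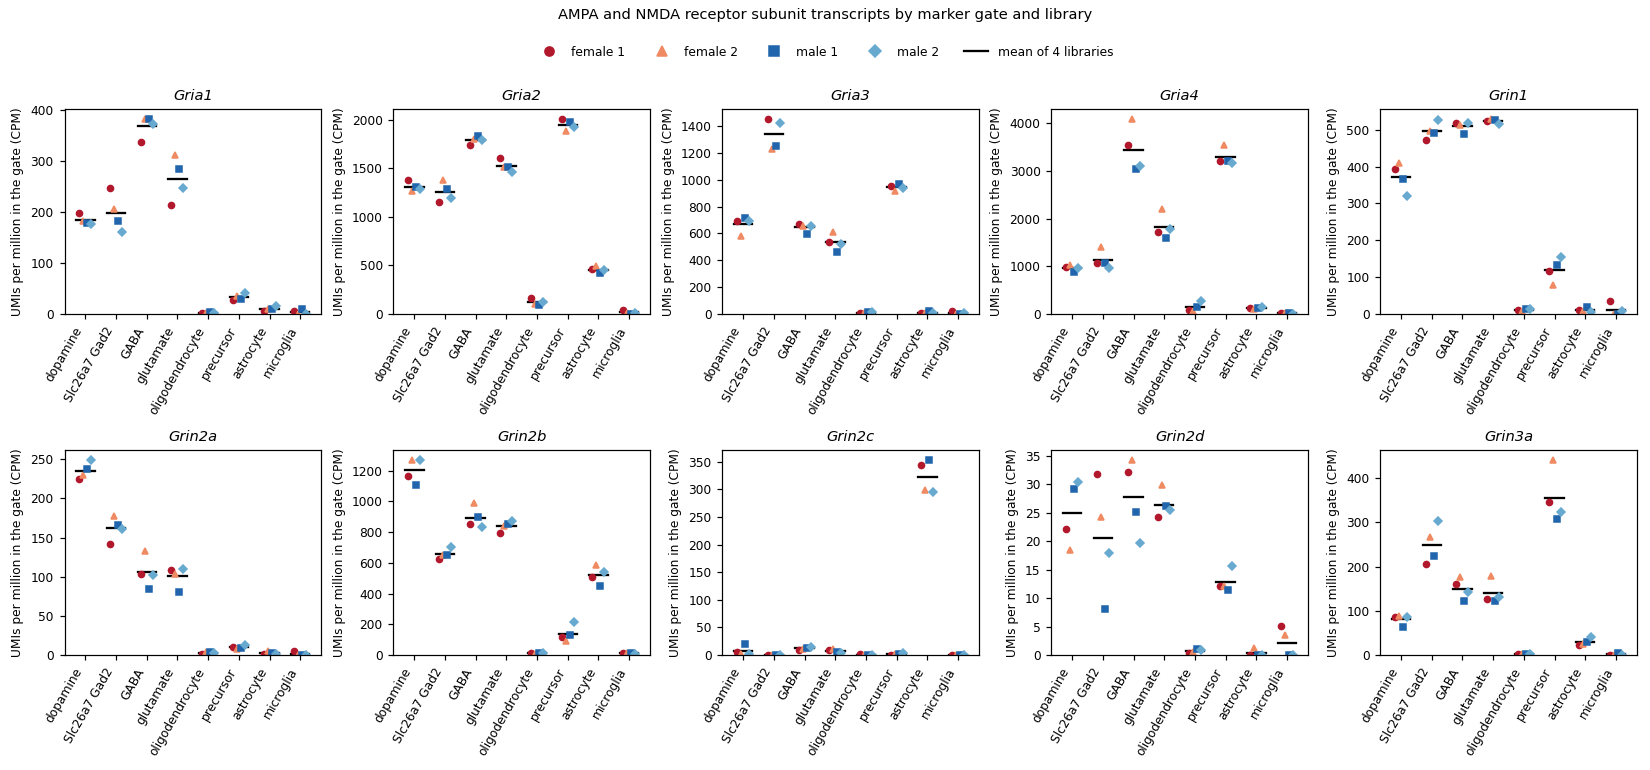
CPM (y axis, linear, from 0, a separate scale for each gene) of the 10 subunit genes in 7 marker gates and the microglia background gate (x axis), with 1 point per library and a bar at the mean of 4 libraries. Gria4 was highest in the GABA and precursor gates, Grin2a and Grin2b in the dopamine gate, Gria3 in the Slc26a7-Gad2 gate and Grin2c in astrocytes.

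Gria4 (ENSRNOG00000006957), which encodes the AMPA subunit GluA4, separated the neuron gates most widely among the AMPA genes. Its level was 988, 1025, 875 and 962 CPM in dopamine nuclei and 3536, 4087, 3031 and 3093 CPM in GABA nuclei. Glutamate nuclei lay between them at 1717, 2205, 1600.0 and 1784 CPM, and no library of 1 of these 3 gates overlapped with another gate. Dopamine nuclei were 3.38-fold lower than GABA nuclei (log2 difference -1.76 ± 0.20 (SE), adjusted p 5.7e-09) and 1.80-fold lower than glutamate nuclei (adjusted p 0.0013). The GABA gate was 1.88-fold higher than the glutamate gate (adjusted p 0.00064). The Slc26a7-Gad2 gate, at 1066, 1395, 1066 and 966 CPM, overlapped with the dopamine gate and was 3.02-fold lower than the GABA gate (adjusted p 6.5e-07). Its difference from the glutamate gate, 1.61-fold lower, passed narrowly (adjusted p 0.046) and missed the threshold under 7 of the other settings, including without female 1 (adjusted p 0.16), without male 1 (0.094) and without male 2 (0.067).

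Gria4 and Grin3a, taken up further on, were both higher in precursors than in the mean of the neuron gates and lower in dopamine nuclei than in GABA and glutamate nuclei. The 250 bases before their start sites are shown for that reason, from the RefSeq table of build GRCr8, which held such windows for 5 of the 10 genes (Gria4, Grin1, Grin2c, Grin2d and Grin3a). Capitals mark the E-box CAGCTG, a palindrome that reads the same on both strands and was searched for without mismatches, and runs read 5′ to 3′ on the gene's strand toward its start. Gria4 is on the minus strand at chr8:10319882-10320131 with 2 adjoining matches, which begin 98 and 92 bases before the start, and Grin3a is on the minus strand at chr5:69001559-69001808 with 1 match at 36 bases.
Gria4: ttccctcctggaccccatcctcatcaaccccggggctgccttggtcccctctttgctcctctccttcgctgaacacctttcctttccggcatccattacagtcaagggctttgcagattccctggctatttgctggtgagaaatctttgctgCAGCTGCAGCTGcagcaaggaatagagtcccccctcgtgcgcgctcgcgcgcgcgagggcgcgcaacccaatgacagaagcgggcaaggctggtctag
Grin3a: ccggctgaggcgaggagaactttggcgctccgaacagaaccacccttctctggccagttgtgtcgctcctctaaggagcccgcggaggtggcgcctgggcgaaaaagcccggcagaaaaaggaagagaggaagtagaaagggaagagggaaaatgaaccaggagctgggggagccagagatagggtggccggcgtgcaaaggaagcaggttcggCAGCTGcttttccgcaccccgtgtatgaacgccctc
Of 33469 such windows in the table, 12.0% held CAGCTG. The windows of Grin1, Grin2c and Grin2d held no match, and none of the 5 held the GC box GGGCGG on either strand, which 30.5% of all windows did. These matches describe letters in a window and no binding was measured.

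Gria1 (ENSRNOG00000045816), which encodes GluA1, the subunit best known for activity-dependent insertion at synapses, had the same order among dopamine, glutamate and GABA nuclei. It stood at 199, 183, 179 and 178 CPM in dopamine nuclei, 215, 312, 286 and 248 CPM in glutamate nuclei and 339, 383, 382 and 374 CPM in GABA nuclei. Dopamine nuclei were 1.89-fold below GABA nuclei (log2 -0.92 ± 0.11 (SE), adjusted p 1.5e-08) and 1.36-fold below glutamate nuclei (adjusted p 0.0025). The difference from glutamate nuclei had an adjusted p of 0.055 when nuclei meeting several gates were kept in each. The Slc26a7-Gad2 values of 248, 205, 182 and 160.5 CPM overlapped with those of dopamine and glutamate nuclei and lay 1.83-fold below GABA nuclei (adjusted p 1.1e-05). The Slc26a7-Gad2 gate did not differ from the glutamate gate at the main setting (adjusted p 0.092). It was lower without female 1 (log2 -0.61, adjusted p 0.011) and with 1 more UMI per gate gene (log2 -0.69, adjusted p 0.0058). It was also lower on thinning (log2 -0.82, adjusted p 0.015) and with no filter on low counts (log2 -0.45, adjusted p 0.010).

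Gria2 (ENSRNOG00000054204), whose product GluA2 limits calcium entry, varied least among the AMPA genes across neuron gates. Its levels were 1379, 1273, 1312 and 1293 CPM in dopamine nuclei and 1739, 1808, 1833 and 1792 CPM in GABA nuclei. They were 1610.1, 1519, 1514 and 1469 CPM in glutamate nuclei and 1151, 1386, 1293 and 1201 CPM in Slc26a7-Gad2 nuclei. The dopamine gate was 1.29-fold below the GABA gate (adjusted p 0.0022, and 0.059 without male 2), and the Slc26a7-Gad2 gate was 1.40-fold below it (adjusted p 0.00056, and 0.058 without male 2). Dopamine and glutamate nuclei did not overlap, but their difference of -0.15 ± 0.09 (log2, SE) did not pass the test (adjusted p 0.29).

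Gria3 (ENSRNOG00000007682), which encodes GluA3, had its highest level in Slc26a7-Gad2 nuclei. There it stood at 1452, 1232, 1249 and 1424 CPM, above every library of the other 6 gates. Dopamine nuclei had 690.0, 578, 713 and 690.3 CPM, GABA nuclei 671, 657, 595 and 657 CPM, and glutamate nuclei 537, 613, 458 and 524 CPM. The Slc26a7-Gad2 gate was 2.11-fold higher than the GABA gate (log2 1.08 ± 0.11 (SE), adjusted p 8e-10), 2.54-fold higher than the glutamate gate (adjusted p 3.9e-12) and 1.92-fold higher than the dopamine gate (adjusted p 2.8e-08). Dopamine and GABA nuclei overlapped (adjusted p 0.37). Dopamine nuclei were 1.32-fold above glutamate nuclei (adjusted p 0.0029), in 3 of 4 libraries and with overlapping ranges. That call was lost without female 1 (adjusted p 0.088) and without male 1 (0.056). It was also lost with DESeq2 (0.068) and under both other treatments of nuclei that meet several gates (0.13 and 0.14).

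The share of the summed UMIs of the 4 Gria genes that each gene carried gives the mix in a form that does not depend on how much of the family a nucleus type expressed. The Gria2 share was 42.3%, 41.6%, 42.6% and 41.4% in dopamine nuclei, and it was 27.7%, 26.1%, 31.4% and 30.3% in GABA nuclei. Means ± SD over 4 libraries were 42.0% ± 0.58 in dopamine, 37.0% ± 3.2 in glutamate, 32.1% ± 2.0 in Slc26a7-Gad2 and 28.9% ± 2.4 in GABA nuclei. The Gria4 share was 54.8% ± 3.4 in GABA, 43.8% ± 2.7 in glutamate, 30.8% ± 2.1 in dopamine and 28.5% ± 3.2 in Slc26a7-Gad2 nuclei. Gria3 carried 34.3% ± 4.0 in Slc26a7-Gad2 nuclei, 21.3% ± 1.8 in dopamine, 12.8% ± 0.63 in glutamate and 10.4% ± 0.70 in GABA nuclei. Gria1 stayed at 5.07% to 6.38% in all 4 neuron gates. In 168 comparisons of a share between a pair of gates (both families), 118 went the same way in all 4 libraries. An exact two-sided sign-flip test over 4 libraries cannot go below p = 0.13, so none could pass 0.05 (lowest Benjamini-Hochberg value 0.178).

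**Figure D2:**
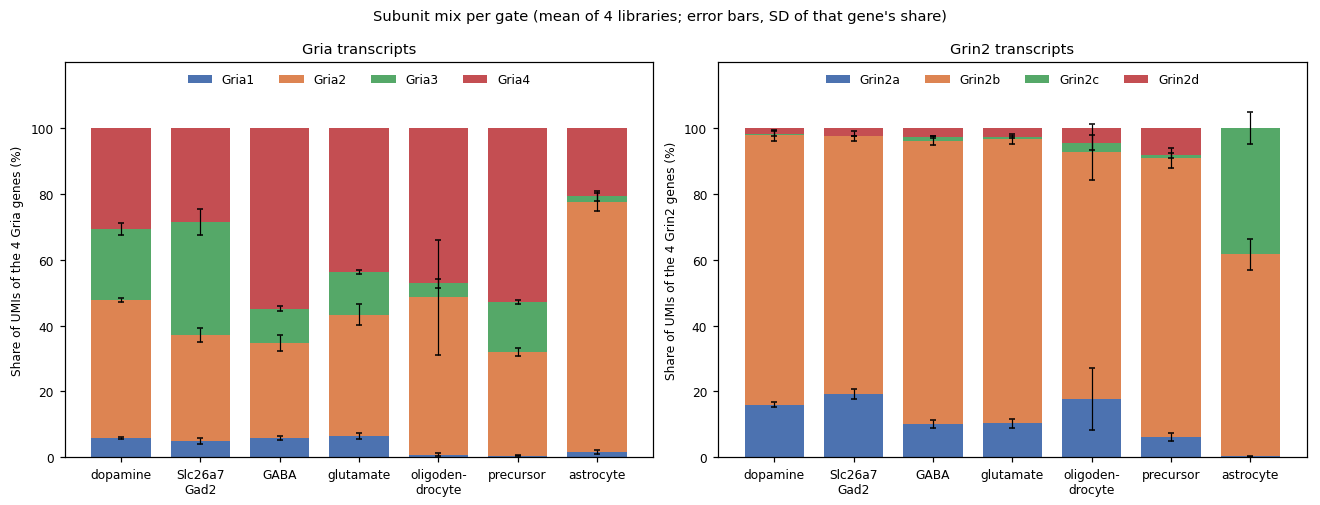
Share of UMIs (y axis, percent) carried by each Gria gene (left) and each Grin2 gene (right) in the 7 gates (x axis), as stacked means of 4 libraries. The SD of a share is drawn at its upper edge, except for the top genes Gria4 and Grin2d, which have no bar. The Gria2 share was 76.0% in astrocytes against 28.9% in GABA nuclei, and Grin2c reached 38.3% in astrocytes.

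Single nuclei were compared at equal depth by thinning each to 2000 UMIs and leaving out shallower ones. Among nuclei with a UMI of another Gria gene, a Gria2 UMI was also present in 91.1% ± 1.5 (SD, n = 4) of dopamine, 90.0% of Slc26a7-Gad2, 94.5% of GABA and 91.8% of glutamate nuclei. Without thinning, all 4 libraries had 100% of such dopamine nuclei with a Gria2 UMI. Nuclei with Gria1, Gria3 or Gria4 and no detected Gria2 were thus few among the neuron gates at full depth.

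Grin1 (ENSRNOG00000011726) encodes GluN1, the subunit that NMDA receptors require. Dopamine nuclei had 395, 411, 367 and 319 CPM, below every library of the other 3 neuron gates. Those were at 517, 512, 489.5 and 519 CPM (GABA), 523, 529, 528 and 517 CPM (glutamate) and 471, 495, 491 and 526 CPM (Slc26a7-Gad2). The dopamine gate was 1.29-fold below the GABA gate (log2 -0.37 ± 0.11 (SE), adjusted p 0.0068, and 0.066 with DESeq2) and 1.34-fold below the glutamate gate (adjusted p 0.0022). Its difference from Slc26a7-Gad2 nuclei, -0.36 ± 0.13 on the log2 scale, missed the threshold (adjusted p 0.058). That difference passed without female 2 (adjusted p 0.044) and with no filter on low counts (log2 -0.33, adjusted p 0.036).

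Grin2a and Grin2b went the other way from Grin1. Grin2a (ENSRNOG00000033942) encodes GluN2A, a subunit whose share at many forebrain synapses grows during maturation. Its level was 225, 231, 237 and 249 CPM in dopamine nuclei and 142, 178, 166 and 160.5 CPM in Slc26a7-Gad2 nuclei. GABA nuclei had 104, 133, 84.0 and 102 CPM and glutamate nuclei 108, 103, 80.6 and 109.8 CPM, so only these last 2 gates overlapped. Dopamine nuclei were 2.38-fold above GABA nuclei (log2 1.25 ± 0.12 (SE), adjusted p 5.7e-11) and 2.47-fold above glutamate nuclei (log2 1.30, adjusted p 1.3e-11). The smaller difference from Slc26a7-Gad2 nuclei, 1.54-fold (adjusted p 0.0051), shrank to a log2 difference of 0.20 when 1 more UMI of each gate gene was required (adjusted p 0.55), and it was lost on thinning (0.25). Slc26a7-Gad2 nuclei exceeded GABA nuclei 1.55-fold (adjusted p 0.0088), a call lost without male 1 (0.13), without male 2 (0.060), on thinning (0.46) and with nuclei meeting exactly 1 gate (log2 0.39, adjusted p 0.39). They exceeded glutamate nuclei 1.61-fold (adjusted p 0.0050), a call lost without male 1 (0.091), on thinning (log2 0.42, adjusted p 0.55) and with nuclei meeting exactly 1 gate (log2 0.45, adjusted p 0.31).

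Grin2b (ENSRNOG00000008766) encodes GluN2B, the slower-closing GluN2 subunit with a CaMKII binding site. It stood at 1165, 1269, 1108 and 1269 CPM in dopamine nuclei, above all other gates. GABA nuclei (850.3, 992, 897 and 831 CPM) and glutamate nuclei (794, 841, 852 and 875 CPM) overlapped, and Slc26a7-Gad2 nuclei were lowest among neurons at 627, 652, 649 and 704 CPM. Dopamine nuclei were 1.42-fold higher than GABA nuclei (adjusted p 0.00020), 1.5-fold higher than glutamate nuclei (adjusted p 2.8e-05) and 1.90-fold higher than Slc26a7-Gad2 nuclei (log2 0.93 ± 0.12 (SE), adjusted p 3e-07). Slc26a7-Gad2 nuclei were 1.34-fold lower than GABA nuclei (adjusted p 0.020), a call that was lost without female 1 (0.19) and without female 2 (0.073). It was also lost with nuclei meeting several gates kept in each (log2 -0.22 in place of -0.42, adjusted p 0.52), without the library block (0.079), with nuclei meeting exactly 1 gate (0.074) and on thinning (0.17).

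Grin3a (ENSRNOG00000005723) encodes GluN3A, a subunit that lowers the calcium permeability of NMDA receptors. Slc26a7-Gad2 nuclei had 205, 266, 223 and 303 CPM and dopamine nuclei 85.6, 88.3, 63.8 and 86.1 CPM, the extremes among neurons. GABA nuclei (159.7, 177, 121 and 143 CPM) and glutamate nuclei (127, 179, 123 and 129.9 CPM) overlapped with each other and lay between them. The Slc26a7-Gad2 gate was 2.98-fold above the dopamine gate (log2 difference of dopamine minus Slc26a7-Gad2 -1.57 ± 0.17 (SE), adjusted p 2.4e-09), 1.69-fold above the GABA gate (adjusted p 0.00013) and 1.82-fold above the glutamate gate (adjusted p 2.1e-05). Dopamine nuclei were 1.76-fold below GABA nuclei (adjusted p 1.1e-05) and 1.64-fold below glutamate nuclei (adjusted p 9.1e-05). With every nucleus thinned to 2000 UMIs before summing, these last 2 differences were -0.40 and -0.18 on the log2 scale, with adjusted p of 0.23 and 0.71. Thinning also ended the call of Slc26a7-Gad2 above GABA nuclei (log2 0.60, adjusted p 0.11).

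Grin2d (ENSRNOG00000021063) and Grin2c (ENSRNOG00000003280), which encode the subunits GluN2D and GluN2C with weak magnesium block, gave few UMIs in neurons. Grin2d was at 18.4 to 30.5 CPM in dopamine, 19.7 to 34.3 CPM in GABA, 24.3 to 29.8 CPM in glutamate and 8.11 to 31.9 CPM in Slc26a7-Gad2 nuclei, and all 4 gates overlapped. Grin2c was at 8.70, 11.4, 13.5 and 13.9 CPM in GABA nuclei and 8.40, 11.7, 4.99 and 3.97 CPM in glutamate nuclei. In dopamine nuclei it had 4, 2, 18 and 1 UMIs, so 18 of 25 came from male 1. The microglia gate, used below as a background for free RNA, gave no Grin2c UMI and an upper limit of 4.14 CPM, which 4 GABA, 3 glutamate and 2 dopamine libraries exceeded. Without male 1, the Grin2c level of dopamine nuclei was lower than that of GABA nuclei (log2 -1.76, adjusted p 0.025); with it the gates overlapped (adjusted p 0.46). Between GABA and glutamate nuclei, Grin2c missed the threshold at the main setting (adjusted p 0.078). It passed without female 2 (log2 1.02, adjusted p 0.040) and with 1 more UMI per gate gene (log2 1.08, adjusted p 0.029). Doublets kept (log2 0.86, adjusted p 0.043) and no filter on low counts (log2 0.81, adjusted p 0.0059) also gave a call.

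No Grin2c UMI was found among 1196754 UMIs of Slc26a7-Gad2 nuclei, which allows a level of up to 2.51 CPM (3 UMIs over the gate). Against that limit Grin2c was at least 4.72-fold lower than in pooled GABA nuclei (11.8 CPM), at least 2.63-fold lower than in glutamate nuclei (6.60 CPM) and at least 3.18-fold lower than in dopamine nuclei (7.98 CPM). The last value rests on male 1, which gave 18 of the 25 dopamine UMIs. At the main setting only the comparisons with GABA nuclei (adjusted p 0.014) and dopamine nuclei (0.044) passed the test. The first was lost with nuclei meeting exactly 1 gate (adjusted p 0.099) and on thinning (0.12), and the second with each library left out in turn (0.052 to 0.26). The second was also lost with nuclei meeting several gates kept in each (log2 2.29, adjusted p 0.15), with nuclei meeting exactly 1 gate (0.12) and on thinning (0.54). The comparison with glutamate nuclei passed with DESeq2 (adjusted p 0.035) and with no filter on low counts (0.0053).

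Among the 4 Grin2 genes, Grin2a carried 16.0% ± 0.76 (SD, n = 4) of UMIs in dopamine nuclei and 19.2% ± 1.5 in Slc26a7-Gad2 nuclei. It carried 10.1% ± 1.3 in GABA and 10.3% ± 1.4 in glutamate nuclei. The ranges of dopamine nuclei (15.2% to 17.0%) and of GABA nuclei (8.23% to 11.3%) did not overlap. A UMI of both Grin2a and Grin2b at 2000 UMIs per nucleus was found in 28.9% ± 1.3 of dopamine, 17.1% ± 2.2 of Slc26a7-Gad2, 12.2% ± 2.2 of GABA and 11.7% ± 1.7 of glutamate nuclei. At full depth these shares were 67.9%, 57.2%, 39.7% and 40.3%.

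**Figure D3:**
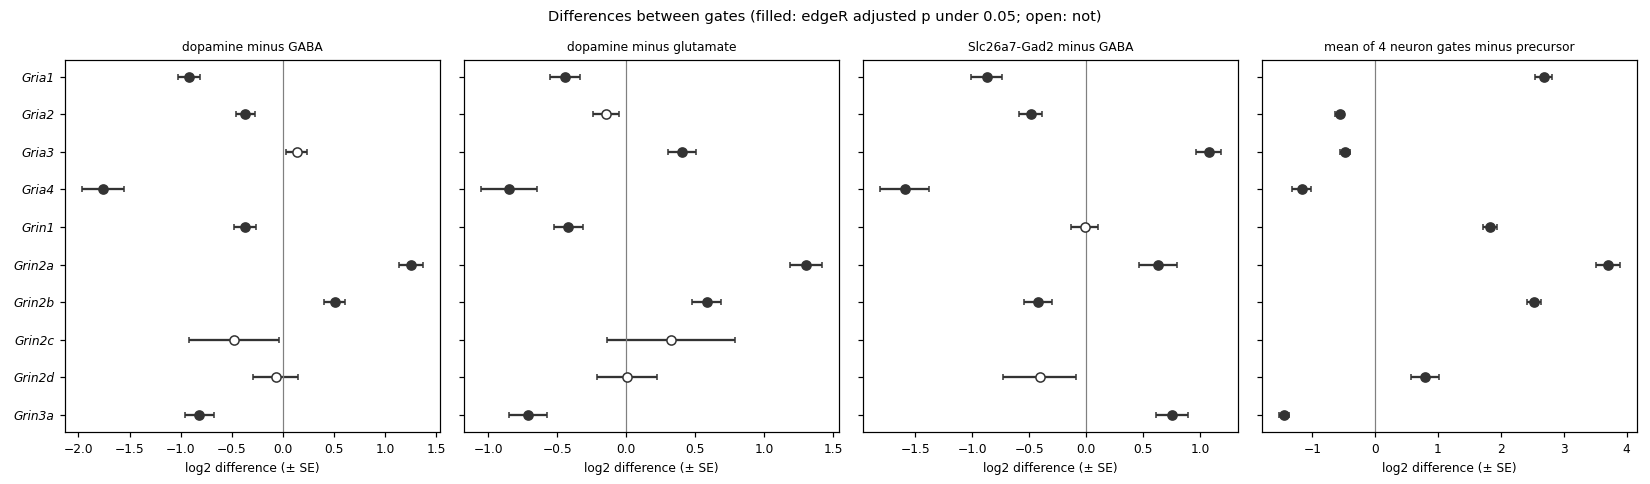
Log2 differences between gates with their SE (x axis, a separate scale for each panel) for the 10 genes (y axis), filled where the edgeR adjusted p was under 0.05. Grin2c is left out of the 2 panels that use the Slc26a7-Gad2 gate, where it had no UMI. In both dopamine panels Grin2a and Grin2b lie to the right of 0 and Gria1, Gria4, Grin1 and Grin3a to the left.

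Counted over the 10 genes, dopamine minus GABA gave 2 higher and 5 lower, against 28.6% of all 12497 genes called. Dopamine minus glutamate gave 3 higher and 4 lower (23.6% of all genes called). Dopamine minus Slc26a7-Gad2 gave 3 higher and 2 lower (14.0%), and 3 of the 10 when nuclei were thinned. Slc26a7-Gad2 minus GABA gave 3 higher and 5 lower (7.90%), 5 when only nuclei meeting 1 gate were used and 4 when thinned. Slc26a7-Gad2 minus glutamate gave 3 higher and 1 lower (6.47%). That count rested on single libraries and settings: it was 2 without male 1, 2 with nuclei meeting 1 gate, 7 with 1 more UMI per gate gene and 8 with no filter on low counts. GABA minus glutamate gave 2 higher (12.0%), namely Gria1 and Gria4, and 4 without female 2, where Gria3 (log2 0.31, adjusted p 0.049) and Grin2c were added. The median log2 difference of the 10 genes was -0.37 in dopamine minus GABA and -0.07 in dopamine minus glutamate, beside -0.01 for all genes in both.

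Oligodendrocyte precursors had more Gria2, Gria3, Gria4 and Grin3a than the mean of the 4 neuron gates and less Gria1, Grin1, Grin2a, Grin2b and Grin2d, while Grin2c was not called (adjusted p 0.93). That mean takes in the Slc26a7-Gad2 gate, which had no Grin2c UMI, so the test cannot place Grin2c between neurons and precursors. Its level in precursors, 0 to 2.85 CPM, lay below the GABA (8.70 to 13.9 CPM) and glutamate libraries (3.97 to 11.7 CPM). It overlapped with the dopamine libraries (1.32 to 20.1 CPM). Precursors are dividing glia that receive synapses from neurons. Gria2 was at 2009.9, 1886, 1982 and 1925 CPM, Gria3 at 952, 914, 966 and 939 CPM and Gria4 at 3205, 3541, 3209.8 and 3169.8 CPM. Grin3a was at 346, 441, 308 and 322 CPM, above all libraries of every other gate. Against the mean of the 4 neuron gates, precursors were 1.48-fold higher in Gria2 (adjusted p 1.1e-08), 1.40-fold in Gria3 (1.4e-06), 2.25-fold in Gria4 (6.8e-09) and 2.73-fold in Grin3a (6.2e-18). The Gria4 levels of precursors and GABA nuclei overlapped, and the Gria3 level of precursors lay below all libraries of the Slc26a7-Gad2 gate.

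Other subunits were lower in precursors than in neurons. Gria1 stood at 28.2, 36.2, 30.3 and 41.4 CPM, 6.41-fold below the neuron mean (adjusted p 6.8e-20), and Grin2a at 7.75 to 12.1 CPM, 13-fold below it (adjusted p 1.2e-19). Grin1 stood at 116, 79.2, 133 and 153 CPM, 3.54-fold below (adjusted p 5e-18), and Grin2b at 118, 89.5, 132 and 213 CPM, 5.74-fold below (adjusted p 1.6e-21). Grin2d, at 11.5 to 15.7 CPM, was 1.73-fold below (adjusted p 0.0022), and that call was lost on thinning (adjusted p 0.38). In all, 5 of the 10 genes were higher in neurons and 4 higher in precursors, where 59.4% of all genes were called. The 3 neuron markers Snap25, Syt1 and Rbfox3 summed to 1086, 884, 893 and 1326 CPM in precursors against 3008 to 7881 CPM in neuron gates. This sum, Grin1 and Grin2b were each lowest in female 2 and highest in male 2 among precursors, and the part of neuron RNA in those 2 genes' levels was not tested.

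Mature oligodendrocytes, the myelin-forming cells into which precursors develop, were lower in 9 of the 10 genes than precursors (65.9% of all genes called). The fold was 149 for Grin3a (log2 7.22 ± 0.16 (SE), adjusted p 4.4e-31), 72.6 for Gria3, 20.3 for Gria4, 13.7 for Gria1 and 13.4 for Gria2. Grin2d (15.0-fold), Grin2b (10.1-fold) and Grin1 (9.08-fold) were lower too. Grin2a was 2.91-fold lower (adjusted p 0.00024), and that call was lost on thinning (0.11) and with 1 more UMI per gate gene (0.78). Grin2c was at 0 to 2.85 CPM in precursors and 0.166 to 0.934 CPM in oligodendrocytes (adjusted p 0.20). It was called higher in precursors with nuclei meeting several gates kept in each (log2 1.73, adjusted p 0.010). Thinning also gave a call (log2 2.27, adjusted p 0.029), while 1 more UMI per gate gene turned the sign (log2 -0.20, adjusted p 0.90). The median over the 10 genes was 3.76 on the log2 scale beside -0.03 for all genes.

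What remained in oligodendrocytes was set against free RNA, estimated from a microglia gate (Csf1r and Cx3cr1, 528 nuclei) that should lack these receptors. Gria2 was at 166, 108, 96.1 and 119 CPM in oligodendrocytes and 16.8 CPM in pooled microglia, with an upper 95% Poisson limit of 27.8 CPM, which covers counting error only. Gria4 was at 75.1, 64.8, 151 and 265 CPM against 15.7 CPM and a limit of 26.4 CPM. The other 8 genes did not exceed the microglia limit in any oligodendrocyte library and are read as background there. The 3 other precursor markers (Cspg4, Vcan and Tnr) summed to 93.9, 83.2, 80.0 and 90.7 CPM in oligodendrocytes against 4951 to 5633 CPM in precursors. The part of precursor RNA in the Gria4 level was not tested.

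Astrocytes stood apart by Grin2c, Grin2b and a high Gria2 share. Grin2c was at 345, 299, 353 and 295 CPM, while the highest library of any other gate had 20.1 CPM. It was 229-fold above precursors (log2 difference of precursor minus astrocyte -7.84 ± 0.29 (SE), adjusted p 9.8e-23) and 614-fold above oligodendrocytes, which had 5, 3, 1 and 1 UMIs. Grin2b was at 505, 587, 446 and 542 CPM, 4.10-fold above precursors (adjusted p 5.3e-17) and 41.5-fold above oligodendrocytes (adjusted p 4.9e-29), though below all neuron libraries. Grin1 was at 10.1, 6.92, 19.5 and 5.34 CPM, and only male 1 exceeded the microglia limit of 19.2 CPM for this obligatory subunit. The 3 neuron markers summed to 76.2 to 212 CPM in astrocytes, with the highest sum in male 1, and 3008 CPM or more in neuron gates.

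Among AMPA genes, astrocytes had 464, 494, 419 and 454 CPM of Gria2 and 127, 113, 117 and 140.3 CPM of Gria4. Gria1 (5.68 to 14.9 CPM) and Gria3 (5.66 to 21.8 CPM) each exceeded the microglia limit in 1 library only. Gria2 thus carried 76.0% ± 2.7 (SD, n = 4) of their Gria UMIs. Grin3a was at 22.1, 24.5, 29.8 and 41.5 CPM, above its limit of 6.25 CPM in all 4 libraries. Precursors were higher than astrocytes in 8 of the 10 genes and lower in Grin2b and Grin2c (54.2% of all genes called). Among them Grin2a, at 1.14 to 5.04 CPM in astrocytes, lost its call on thinning (adjusted p 0.14) and with 1 more UMI per gate gene (0.54).

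Astrocytes exceeded oligodendrocytes in 5 genes, Gria1, Gria2, Grin2b, Grin2c and Grin3a, and in none were they lower (67.4% of all genes called). The Gria1 call was lost when nuclei that met several gates were kept (log2 0.41, adjusted p 0.35). Under that setting 9 of the 10 genes were called, and the 5 added (Gria3, Gria4, Grin1, Grin2a and Grin2d) were all lower in astrocytes. Leaving out a library added Grin2d (without female 2, adjusted p 0.027) or Gria3 (without male 1, adjusted p 0.025), both lower in astrocytes and both at background levels in each gate. Gria3 was also lower with 1 more UMI per gate gene (log2 -0.97, adjusted p 0.0057), and Grin1 with doublets kept (log2 -0.51, adjusted p 0.039). Gria4, above the microglia limit in all 4 libraries of both gates, was lower with no filter on low counts (log2 -0.27, adjusted p 0.038).

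**Figure D4:**
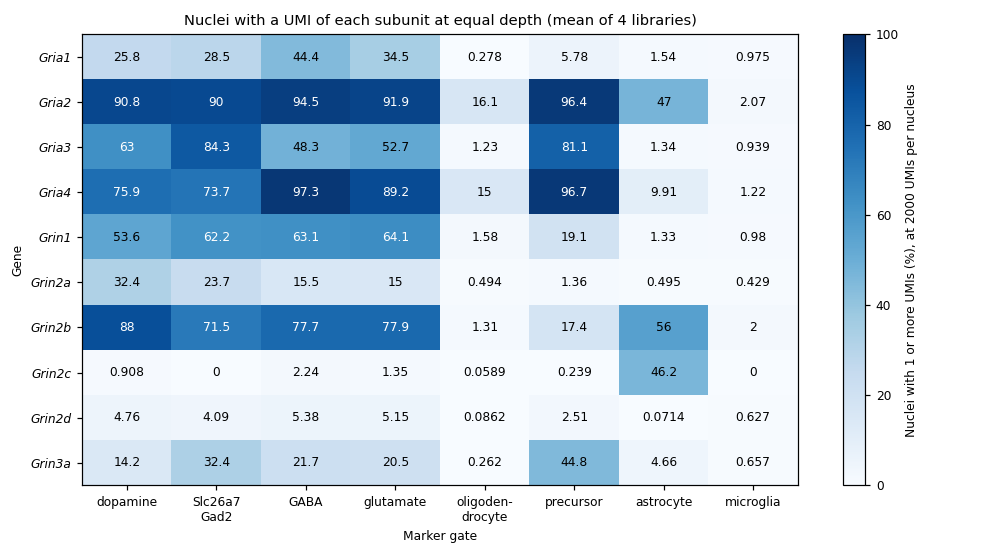
Percent of nuclei with 1 or more UMIs of each gene (rows) in each gate (columns) after thinning to 2000 UMIs per nucleus, mean of 4 libraries, with the value printed in each cell. Microglia, the background column, reach 2.07% at most, and astrocytes reach 46.2% for Grin2c.

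The share of nuclei with a UMI depends on depth. Without thinning, Grin2a was found in 67.9% of dopamine and 40.5% of GABA nuclei, beside 32.4% and 15.5% at 2000 UMIs. Unless stated, the shares below were compared at equal depth, after thinning to 2000 UMIs. Gria4 was found in 97.3% ± 0.90 (SD, n = 4) of GABA and 96.7% ± 1.3 of precursor nuclei, against 75.9% ± 2.7 of dopamine and 73.7% ± 5.0 of Slc26a7-Gad2 nuclei. Gria3 was found in 84.3% ± 6.1 of Slc26a7-Gad2 nuclei and 48.3% ± 2.7 of GABA nuclei. The mean shares went against the order of the mean CPM in some pairs of gates whose CPM overlapped, and no order is read from them. Among neuron gates these were Gria3 in glutamate (52.7% ± 3.6) and GABA nuclei and Gria4 in dopamine and Slc26a7-Gad2 nuclei. Grin2b in glutamate (77.9% ± 1.2) and GABA nuclei (77.7% ± 2.8) and Grin2c in glutamate (1.35% ± 0.40) and dopamine nuclei (0.908% ± 0.64) did so too. Among glial gates these were Gria3 in astrocytes (1.34%) and oligodendrocytes (1.23%), and Grin2a in the same gates (0.495% and 0.494%). The microglia shares were 1.22% for Gria4 and 0.939% for Gria3. Microglia nuclei were shallow, with median depths of 1318.5 to 1765.5 UMIs, and 137 of 528 reached 2000 UMIs.

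Grin2a was found in 32.4% ± 1.6 of dopamine nuclei and in 15.0% to 23.7% of the other 3 neuron gates on average, beside 0.429% in microglia. Grin2c was found in 46.2% ± 4.1 of astrocytes and in 0 of 137 microglia nuclei, which allows a share of up to 2.19% (counting error only). Grin3a was found in 44.8% ± 5.6 of precursors, 32.4% ± 7.2 of Slc26a7-Gad2, 14.2% ± 2.3 of dopamine and 4.66% ± 0.77 of astrocyte nuclei, beside 0.657% in microglia. Without thinning the Grin3a shares were 53.3%, 63.5%, 41.2% and 6.95%, so the order of precursors and Slc26a7-Gad2 nuclei depended on depth. The exact sign-flip test of each gate against oligodendrocytes could not go below p = 0.13 with 4 libraries.

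Between females and males, the groups the labels compare, no gene of the 10 passed in any gate by edgeR. Of 62 pairs of a gene and a gate, 0 were called, 11 had an unadjusted p under 0.05, and DESeq2 called 1. Over all genes, 211 to 1090 of the 6241 to 12555 tested per gate had an unadjusted p under 0.05 by edgeR. Of all genes, edgeR called 0.0669% in dopamine, 0.0481% in Slc26a7-Gad2, 0.103% in GABA, 0.0558% in glutamate, 0.0514% in oligodendrocyte, 0.109% in precursor and 0.0981% in astrocyte sums. The lowest adjusted p, 0.22, was that of Gria4 in oligodendrocytes. Female libraries had 75.1 and 64.8 CPM and male libraries 151 and 265 CPM, so the sexes did not overlap (log2 female minus male -1.56 ± 0.26 (SE), 2 libraries per sex). DESeq2 called it (adjusted p 1.2e-06), as did edgeR without female 1 (6.1e-06), without female 2 (3e-10) or without male 1 (9.2e-08), but not without male 2. In the oligodendrocyte gate the 6 vascular markers summed to 3.36, 3.83, 3.56 and 39.0 CPM, highest in male 2, and the 5 microglia markers to 5.23, 5.06, 18.4 and 7.31 CPM, highest in male 1. Their part in the Gria4 difference was not tested. At 2000 UMIs per nucleus, a Gria4 UMI was present in 8.81% and 6.90% of female and in 15.5% and 28.9% of male oligodendrocytes.

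In precursors, the female libraries had 118 and 89.5 CPM of Grin2b and the male libraries 132 and 213 CPM (log2 -0.70 ± 0.22 (SE), adjusted p 0.39). Without female 1 it passed (adjusted p 0.019), and so did Grin1 (log2 -0.80, adjusted p 0.042). Its level was 116 and 79.2 CPM in the female libraries, below the 133 and 153 CPM of the male ones. The neuron marker sums of the precursor gate, given above, were highest in male 2, and their part in these differences was not tested. In GABA nuclei 4 genes (Gria4, Grin2a, Grin2d and Grin3a) were higher in females at an unadjusted p under 0.05, with adjusted p of 0.63 to 0.67. Among all genes there, 844 of 11687 had an unadjusted p under 0.05 in either direction. Whether the differences between neuron gates differed by sex was tested in 60 pairs of a gene and a contrast, with 0 called, 6 at an unadjusted p under 0.05 and a lowest adjusted p of 0.94. Of all 12497 genes, 0 to 2 were called per contrast and 460 to 659 had an unadjusted p under 0.05.

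Partner genes were taken from 5 lists of 48 genes, of which 46 were found and 43 were tested. The list of other NMDA genes had 1 tested gene, Srr, the enzyme that makes the co-agonist D-serine, which was called in neither dopamine contrast nor between precursors and oligodendrocytes. Auxiliary subunits of AMPA receptors, which set trafficking and gating, gave 1 higher and 3 lower of 9 in dopamine minus GABA (28.6% of all genes called) and 1 and 1 in dopamine minus glutamate (23.6%). Cacng3 was higher in dopamine nuclei both times (181 to 201 CPM, against 93.5 to 116 CPM in GABA and 99 to 131 CPM in glutamate nuclei). Cacng4 was at 25.7 to 31.6 CPM in dopamine against 61.8 to 76.4 CPM in GABA nuclei, and Cnih3 was at 0 to 7.83 CPM in dopamine against 13.7 to 50.4 CPM in glutamate nuclei. In precursors 8 of 9 auxiliary subunits were higher than in oligodendrocytes and 0 lower (65.9% of all genes called). Cacng4 led there with 381 to 466 CPM against 0.957 to 1.87 CPM.

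The list of AMPA receptor trafficking and editing genes gave 1 higher and 6 lower of 9 in dopamine minus GABA (28.6% of all genes called), with a median log2 difference of -0.83 beside -0.01 for all genes. It gave 1 higher and 4 lower in dopamine minus glutamate (23.6% of all genes called, median -0.82). The higher gene was Grip2, a scaffold that binds GluA2 and GluA3, at 371 to 440.2 CPM in dopamine and 69.7 to 93.7 CPM in GABA nuclei, with 70.3 to 86.5 CPM in glutamate nuclei. Adarb1, the enzyme that edits the calcium site of Gria2 transcripts, was at 51.1 to 96.2 CPM in dopamine and 189 to 207 CPM in glutamate nuclei (log2 -1.29 ± 0.12 (SE), adjusted p 3.7e-11). Nptx1, a secreted pentraxin that clusters AMPA receptors, was lower in dopamine than in GABA nuclei (5.27 to 12.3 against 22.0 to 26.1 CPM). In precursor minus oligodendrocyte this list gave 5 higher and 2 lower (65.9%). Grip1, the partner scaffold of Grip2, was at 142 to 191 CPM in precursors and 6.70 to 14.2 CPM in oligodendrocytes. Grip2 was lower in precursors on average, but its oligodendrocyte libraries spread from 0.838 to 66.1 CPM.

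Postsynaptic scaffold and signalling genes gave 4 higher and 5 lower of 17 in dopamine minus GABA (28.6% of all genes called), 3 and 5 in dopamine minus glutamate (23.6%) and 15 and 2 in precursor minus oligodendrocyte (65.9%). Homer2, which links glutamate receptors to internal calcium stores, was at 81.4 to 123 CPM in dopamine, 19.7 to 29.9 CPM in GABA and 41.7 to 48.4 CPM in glutamate nuclei. Camk2a, the kinase that phosphorylates GluA1, was at 50.3 to 76.4 CPM in dopamine and 150.0 to 191 CPM in glutamate nuclei, and Dlgap2 was lower in dopamine than in GABA nuclei (21.2 to 24.8 against 55.5 to 74.0 CPM). Dlgap1, a scaffold that binds PSD-95, was at 1164 to 1697 CPM in precursors and 33.1 to 57.0 CPM in oligodendrocytes. Dlg2, which encodes the scaffold PSD-93, was lower in precursors (384 to 616 against 1082 to 1596 CPM). Kainate receptor genes and their Neto partners gave 2 higher and 3 lower of 7 in dopamine minus GABA (28.6%), 1 and 3 in dopamine minus glutamate (23.6%) and 5 and 1 in precursor minus oligodendrocyte (65.9%). The largest in each direction were Grik3, at 341 to 478 CPM in dopamine and 100.0 to 126 CPM in GABA nuclei, and Grik2, at 737 to 929 CPM in dopamine and 2886 to 3475 CPM in GABA nuclei. In glutamate nuclei Grik3 was at 65.4 to 78.7 CPM and Grik2 at 3356 to 3830 CPM. Neto1, a kainate receptor partner, was at 469 to 696 CPM in precursors and 2.43 to 8.30 CPM in oligodendrocytes, and Grik4 was lower in precursors (265 to 385 against 426 to 577 CPM).

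The gene whose level followed each subunit most closely was sought among 9746 genes over the 28 sums of gate and library. Pearson's r on log2(CPM + 1) is a description here, because the 28 sums share libraries and fall into gates. Grin1 lay closest to Snap25, a presynaptic vesicle fusion protein (r = 0.993), and Gria1 to Rtn1 (0.985). The nearest gene was Dpysl3 for Gria2 (0.981), Atp8a2 for Gria3 (0.985) and Sorcs3 for Gria4 (0.965). For the other NMDA genes it was Klhl1 for Grin2a (0.982), Rbms3 for Grin2b (0.984), Evc2 for Grin2c (0.942), Far2 for Grin2d (0.983) and Gucy1a2, a subunit of the nitric oxide receptor, for Grin3a (0.983).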

How the data were processed

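The authors deposited 1 matrix of unscaled UMI counts for each library, with software version 3.0.2 per the file headers. Cell Ranger and build rn6 are named in the submitters' processing notes, while no source used here states the annotation or whether intronic reads were counted. Barcodes under 200 genes or above 5% mitochondrial UMIs were removed (6), as were 980 doublet calls (4.54%), the highest Scrublet scores (scanpy 1.11.5) at 0.8% per 1000 barcodes. The caller's own threshold marked 512. Glial gates needed 1 UMI of each gene, as did Slc26a7 and Gad2. Nuclei meeting a neuron and a glial gate (158) or 2 glial gates (81) were left out, 5483 met no gate, and 110 meeting several neuron gates went to the first of dopamine, GABA, Slc26a7-Gad2 and glutamate.

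Sums of UMIs per gate and library went into quasi-likelihood tests in edgeR 4.0.16 under R 4.3.3 (TMM scaling, filterByExpr), with library as a block for contrasts between gates and no covariate for sex. Adjusted p is Benjamini-Hochberg over all genes tested, called under 0.05, and p-values measure the spread between pooled libraries only. DESeq2 1.42.0 was an alternative. The test was run on simulated data with a dispersion of 0.02, a set value that was not estimated from these data. All simulated libraries of a gate shared the same expected profile, so the rates hold for that setting only. Of 200 changed genes with at least 200 UMIs, the test recovered 95% of log2 changes of 1 and 100% of 2 in dopamine minus GABA (12503 genes), and 87% and 99% in precursor minus oligodendrocyte (12464 genes). False calls were 2.5% and 4.12% of calls.

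The members, gates and gene lists were chosen with earlier results of these data known. All members are named. Partner genes are named where they had the largest called difference of their list in either direction in dopamine minus GABA, dopamine minus glutamate or precursor minus oligodendrocyte, with a mean of at least 20 CPM in a gate. The alternatives were other normalization, filters, gate rules, thinning, doublets kept, no block and each library left out.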

Additional observations from a re-analysis of the deposited data

Results flagged for a closer look

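In 69 groups of 4 libraries with any UMI, 7 had 1 library far from the other 3 by Dixon's test. Chance flags about 1 in 20 groups. Gria3 in dopamine nuclei was at 578 CPM in female 2 and 690.0 to 713 CPM in the others. Grin3a in dopamine nuclei was at 63.8 CPM in male 1, with the others at 85.6 to 88.3 CPM, and in glutamate nuclei it was at 179 CPM in female 2, with the others at 123 to 129.9 CPM. In precursors, Gria4 was at 3541 CPM in female 2 (the others at 3169.8 to 3209.8 CPM) and Grin2d at 15.7 CPM in male 2 (the others at 11.5 to 12.1 CPM). In astrocytes, Gria3 was at 21.8 CPM in male 1 (19 UMIs, the others at 5.66 to 8.21 CPM), and Grin2d was at 1.26 CPM in female 2, which is 2 UMIs, with 0 in the others.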

How the results depend on the processing

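Of 66 called differences between gates, 47 were called under every alternative, and none changed sign. Members called with each library left out ranged from 2 to 4 in Slc26a7-Gad2 minus glutamate and in GABA minus glutamate, 0 to 1 for sex in oligodendrocytes and 0 to 2 in precursors. Thinning gave 3 in dopamine minus Slc26a7-Gad2 and 4 in Slc26a7-Gad2 minus GABA. Nuclei meeting 1 gate gave 5 in Slc26a7-Gad2 minus GABA and 2 in Slc26a7-Gad2 minus glutamate. No filter on low counts gave 8 in Slc26a7-Gad2 minus glutamate, 4 in GABA minus glutamate and 1 for sex in oligodendrocytes and in precursors. 1 more UMI per gate gene gave 7 in Slc26a7-Gad2 minus glutamate. Overlapping gates gave 9 in astrocyte minus oligodendrocyte, and DESeq2 gave 1 for sex in oligodendrocytes. The causes of these changes were not tested.

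For sex, the fit with the replicate number as a replicate block called 1 gene in oligodendrocytes (Gria4, adjusted p 0.0062) and 1 in precursors (Grin2b, 0.0052). With 2 pairs the correlation of same-numbered libraries' deviations was 0.403, and they share only a number.

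Differences that were not called turned sign 29 times, with a lowest adjusted p of 0.19. With libraries left out the log2 ranges were -0.30 to 0.18 (Grin2d, dopamine minus GABA), -0.12 to 0.18 (Grin2d, dopamine minus glutamate), -1.19 to 0.83 (Grin2c, dopamine minus glutamate), -0.14 to 0.0359 (Gria1, dopamine minus Slc26a7-Gad2), -0.0756 to 0.0179 (Grin1, Slc26a7-Gad2 minus GABA), -0.0341 to 0.18 (Grin2d) and -0.0677 to 0.11 (Grin2a, GABA minus glutamate) and -0.49 to 0.17 (Gria4, astrocyte minus oligodendrocyte). Thinning gave 0.29 (Grin2d, dopamine minus GABA), -0.35 (Grin2c, dopamine minus glutamate), 0.18 (Gria1, dopamine minus Slc26a7-Gad2), -0.0615 (Grin2a, GABA minus glutamate), 0.11 (Grin2d) and 0.13 (Gria3, astrocyte minus oligodendrocyte). Nuclei meeting 1 gate gave -0.0302 (Gria3, dopamine minus GABA) and -0.0859 (Grin2d, dopamine minus glutamate). For the latter, no filter gave -0.0256, overlaps -0.0191 and 1 more UMI -0.0581. That threshold also gave 0.19 (Gria4) and 0.23 (Gria1, dopamine minus Slc26a7-Gad2), -0.0396 (Grin2d) and -0.0470 (Grin2a, GABA minus glutamate) and -0.20 (Grin2c, precursor minus oligodendrocyte). Overlaps gave -0.0159 (Grin2a, GABA minus glutamate), and doublets kept gave -0.23 (Grin2c, neurons minus precursor).

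Over all genes, thinning called 1472, 1184 and 579 in the contrasts of dopamine with GABA, glutamate and Slc26a7-Gad2 (3568, 2950 and 1750 without it), 536 and 405 in those of Slc26a7-Gad2 with GABA and glutamate (987 and 808), and 790 in GABA minus glutamate (1498). Slc26a7-Gad2 minus glutamate fell to 519 with nuclei meeting 1 gate, 496 without female 1 and 516 without male 2, and GABA minus glutamate to 900 without the block and 985 without female 1. On thinning, 33.8% and 33.3% of calls were higher in Slc26a7-Gad2 than in GABA and glutamate nuclei, against 44.5% and 44.2%, and the median of all genes shifted to -0.19 in both. Sex calls over all genes ranged over the alternatives from 5 to 40 in dopamine (6 as reported), 3 to 25 in Slc26a7-Gad2 (3), 11 to 323 in GABA (12), 7 to 130 in glutamate (7), 6 to 807 in oligodendrocyte (6), 6 to 240 in precursor (11) and 7 to 98 in astrocyte sums (10). The highest came without female 1 in 4 gates, without female 2 in Slc26a7-Gad2, without male 2 in dopamine and with the replicate block in astrocyte sums. Partner genes were computed at the main setting only. Depth limited Grin2c and Grin2d, with 1 to 37 and 2 to 110 UMIs per neuron sum that had any.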
